A study of Mus musculus with 2 samples.

Results

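The RNAs described here are the small nucleolar RNAs and the Cajal body RNAs, 150 genes of the 55536 GENCODE M21 genes in the gene tables. They were chosen by name alone, as the genes whose symbol starts with Snora, Snord or Scarna followed by a digit. There were 42 H/ACA box genes (Snora), 99 C/D box genes (Snord) and 9 Cajal body genes (Scarna). The 150 genes carry 147 symbols, since Snora16a, Snora43 and Snord80 each name a pair of genes, and each gene had a single transcript. Total RNA had been sequenced from the gastrocnemius (a muscle of the calf) of male B6CASTF1/J mice, the hybrid of C57BL/6J and CAST/EiJ, at 10 days of age. There were 2 libraries in 1 group, each made from 300 ng of RNA with ERCC spike-in RNAs added. The labels give the animals different numbers but the same donor code, so whether the spread between libraries is that between mice rests on the numbers alone. No treatment, genotype or second tissue was labelled, and no gene was tested between conditions.

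Small nucleolar RNAs guide the chemical modification of other RNAs by base pairing. Those of the H/ACA type direct pseudouridylation with the enzyme dyskerin, and those of the C/D type direct ribose methylation with fibrillarin, mostly on ribosomal RNA. A few of them (U3, U8, U14, U17 and U22) act in the cleavage of the ribosomal RNA precursor. Cajal body RNAs have the same boxes, are kept in the Cajal body and guide modification of the spliceosomal RNAs. In mammals most of these RNAs are cut out of introns of host genes, many of which encode ribosomal proteins or are non-coding, and a few have a promoter of their own.

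The transcript sequences of the annotation carried the boxes that give the classes their names. The C box was searched as TGATGA in the first 25 bases, the D box as CTGA in the last 15 bases and the ACA box as ACA in the last 6 bases, on the RNA strand only. The C box and D box windows lie at opposite ends and did not compete for the same bases. Of the 99 C/D members, 70 had the C box (70.7%), 92 the D box (92.9%) and 68 both (68.7%). Both boxes together were in 0 of the 42 H/ACA members and in 4 of the 9 Cajal body members. The background was 18942 other M21 transcripts of 64 to 414 bases, without any annotated as a small nucleolar or Cajal body RNA. Of these, 0.971% had this C box, 7.77% this D box and 0.127% both. The ACA box was in 39 of the 42 H/ACA members (92.9%), in 5 of the 99 C/D members and in 4 of the 9 Cajal body members, against 6.6% of the other transcripts. A match is a string of letters at a fixed place, and a member without one can still have a variant of the box.

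The sequences that follow are those of the members on which the results turn, from the GENCODE M21 transcripts, written 5′ to 3′ as DNA letters. Capitals mark the C box, the D box or the ACA box where the search above found them. Snora73a and Snora73b are the U17 pair, the members with the second and the third highest mean TPM, on the minus strand of mm10 at chr4:132352775-132352979 and chr4:132352322-132352526.
Snora73a: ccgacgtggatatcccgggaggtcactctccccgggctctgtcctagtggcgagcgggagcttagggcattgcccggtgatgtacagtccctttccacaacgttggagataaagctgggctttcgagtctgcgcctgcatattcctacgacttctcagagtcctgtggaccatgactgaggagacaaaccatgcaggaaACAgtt
Snora73b: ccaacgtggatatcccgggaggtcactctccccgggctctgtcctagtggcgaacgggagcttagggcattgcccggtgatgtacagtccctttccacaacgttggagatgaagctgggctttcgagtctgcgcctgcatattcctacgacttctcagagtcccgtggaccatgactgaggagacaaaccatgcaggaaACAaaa
They have 205 bases each and are 96.6% identical. Counted from 1 at the 5′ end, with the base of Snora73a first, they differ by 7 substitutions: G3A, G54A, A111G, T164C, G203A, T204A and T205A. The ACA box was at the same place in each.

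The C/D members with counts were long for their class, and they are shown beside the short kind that makes up most of it. Snord17 was the C/D member with the most reads, and Snord22 and Snord118 (U22 and U8) act on the ribosomal RNA precursor. Snord33 is a typical short methylation guide from the ribosomal protein gene Rpl13a. Snord116l1 stands for 14 members with an identical sequence of 94 bases, which genes outside the members, such as Gm22128, also have. Scarna6 is a Cajal body RNA with both a C and a D box. On mm10 they lie at chr2:144265979-144266216 (Snord17), chr7:45126864-45126947 (Snord33) and chr7:59894620-59894713 (Snord116l1) on the minus strand, and at chr19:8725866-8725991 (Snord22), chr11:69073427-69073561 (Snord118) and chr1:87784556-87784820 (Scarna6) on the plus strand.
Snord17: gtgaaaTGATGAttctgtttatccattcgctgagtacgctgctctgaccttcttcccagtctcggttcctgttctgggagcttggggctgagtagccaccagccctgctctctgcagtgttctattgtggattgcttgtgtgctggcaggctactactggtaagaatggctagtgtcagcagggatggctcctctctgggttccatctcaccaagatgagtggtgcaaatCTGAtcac
Snord22: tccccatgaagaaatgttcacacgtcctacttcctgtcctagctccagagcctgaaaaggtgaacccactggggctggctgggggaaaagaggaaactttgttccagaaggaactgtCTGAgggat
Snord118: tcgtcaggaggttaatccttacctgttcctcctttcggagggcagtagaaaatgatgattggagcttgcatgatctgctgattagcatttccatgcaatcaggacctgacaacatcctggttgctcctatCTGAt
Snord33: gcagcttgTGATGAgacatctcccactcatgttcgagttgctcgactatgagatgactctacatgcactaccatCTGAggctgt
Snord116l1: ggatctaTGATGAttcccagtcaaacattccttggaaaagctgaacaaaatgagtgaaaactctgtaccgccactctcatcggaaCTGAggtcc
Scarna6: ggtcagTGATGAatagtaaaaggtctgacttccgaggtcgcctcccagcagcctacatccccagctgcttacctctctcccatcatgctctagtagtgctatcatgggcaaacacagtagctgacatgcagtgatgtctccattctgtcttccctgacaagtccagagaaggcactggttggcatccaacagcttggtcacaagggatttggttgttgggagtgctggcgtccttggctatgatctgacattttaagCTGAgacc
Snord17 has 238 bases, Snord22 126 and Snord118 135, against 84 for Snord33. In Snord22 and Snord118 the D box was found but no TGATGA in the first 25 bases. Scarna6 has 265 bases.

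Length decided which members could have a count at all. In the gene tables the effective length of a member, the number of positions at which a fragment can start, was its length minus 99 bases for all 61 members of 100 bases or more, and 0 for all 89 shorter ones. Those 89 members (87 C/D and the Cajal body genes Scarna9 and Scarna17) were listed at 0 in both libraries, as were all 2309 other genes under 100 bases. Their 0 is set by the table and says nothing of their level in the muscle. The C/D class had a median length of 84 bases and lost most of its members this way, whereas the shortest H/ACA member had 121.

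Detected here means 3 or more expected counts in each library. By that rule 25 of the 150 members were detected, against 33.1% of all genes. They were 16 of 42 H/ACA members, 5 of 99 C/D members and 4 of 9 Cajal body members. Of the 54 members longer than 120 bases, 46.3% were detected, against 4.29% of the other genes of 121 to 414 bases. All 10 members of 151 bases or more were detected, 15 of the 44 with 121 to 150 bases, and none of the 7 with 100 to 120 bases, all of them C/D. Of the other genes with 100 to 120 bases, 0.354% were detected.

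**Figure D1:**
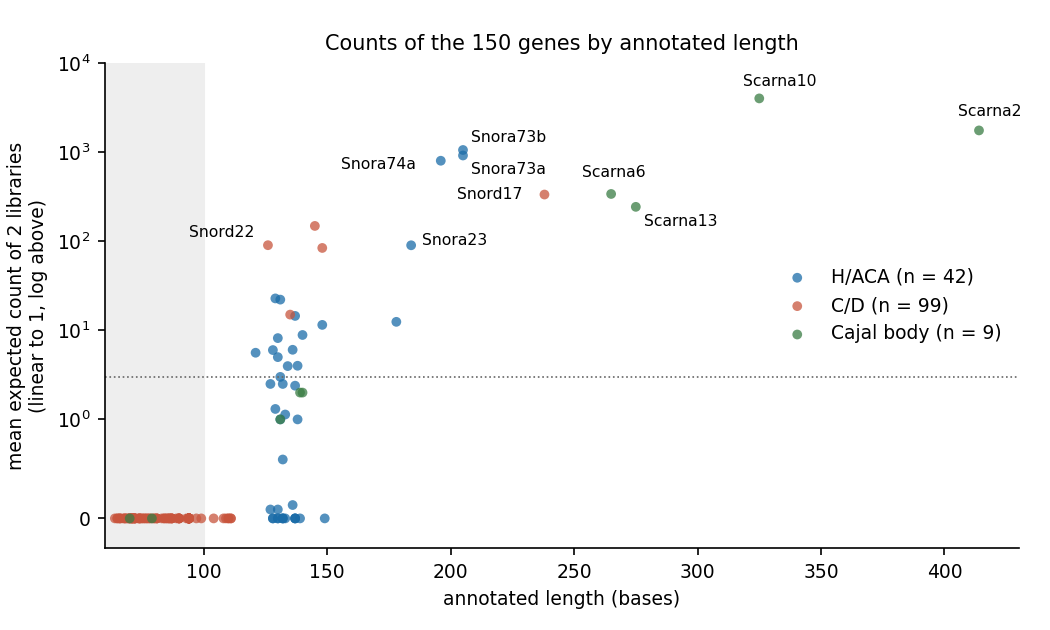
Each point is 1 of the 150 genes, with its annotated length in bases on the x axis and its mean expected count over the 2 libraries on the y axis, which is linear to 1 and logarithmic above. The grey band marks lengths under 100 bases, where all 89 members are at 0, and the dotted line marks 3 counts; the 10 members of 151 bases or more all lie above it.

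A further 16 members had a count that did not reach 3 in both libraries, 13 H/ACA and 3 Cajal body. Among them Snora26 had 8.71 expected counts in replicate 1 and 2.49 in replicate 2. The other 20 members with an effective length above 0 were at 0 in both libraries. For the 13 H/ACA members of these, 128 to 149 bases long, 3 counts would be worth 1.85 to 3.19 TPM. For the 7 C/D members of 104 to 111 bases, with an effective length of 5 to 12 bases, 3 counts would be worth 7.70 to 18.5 TPM. Snord13, which acts in the acetylation of the small ribosomal RNA, was among the latter. Levels under those limits were not detectable at this depth. Of the H/ACA members at 0, Snora19, Snora24, Snora52, Snora75 and a gene each of Snora16a and Snora43 share sequence with another gene. Their 0 also depends on how shared reads were divided, so the limits do not bound their level.

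Counts were concentrated in a few members. Scarna10 alone held 39.9% ± 2.78 (SD, n = 2) of all counts on members, the 5 leading members 85.1% ± 0.294 and the 12 leading members 98.3% ± 0.197. Expected counts on all members summed to 10368 (replicate 1) and 9679 (replicate 2), which was 0.0262% ± 0.000931 (SD, n = 2) of the counts on M21 genes. As TPM, which divides by effective length, they made up 0.216% ± 0.00326.

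The class with the largest share depended on the scale. Cajal body members held 63.2% ± 3.35 (SD, n = 2) of the members' counts, H/ACA members 30.1% ± 3.22 and C/D members 6.70% ± 0.132. Of the members' summed TPM, H/ACA members held 45.9% ± 3.25, Cajal body members 38.3% ± 3.26 and C/D members 15.8% ± 0.0136. Without the leading member of each class, Cajal body members held 50.5% of the counts and H/ACA members 42.2%. TPM raised the share of the C/D class over 2-fold, since its 5 members with counts had effective lengths of 27 to 139 bases.

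Among the Cajal body RNAs, Scarna10 had the highest level. This RNA, also known as U85, joins a C/D and an H/ACA part in a single molecule. It had 4340 expected counts in replicate 1 and 3671 in replicate 2, or 592 and 500 TPM (546 ± 64.9, SD, n = 2). Scarna10 lies on chromosome 6 at 125186359 to 125186683 of mm10, minus strand, within Ncapd2 and partly over an exon of a Ncapd2 transcript. Ncapd2, a condensin subunit, had 12.1 and 10.8 TPM, so the small RNA stood 47.7-fold above its host in mean TPM.

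Scarna2 was the second Cajal body RNA, with 1855 and 1647 counts, or 182 and 161 TPM (171 ± 14.5). It is a C/D type RNA, on chromosome 3 at 108554338 to 108554751, minus strand, with no gene on the same strand around it. Scarna6 (U88), from an intron of Atg16l1 on chromosome 1, had 65.2 and 60.7 TPM. Scarna13 (U93), from an intron of the non-coding gene Snhg10 on chromosome 12, had 43.6 and 41.5 TPM. The 4 levels were in the same order in both libraries, and the TPM values of neighbours in that order did not overlap. Scarna3a, Scarna3b and Scarna8 had at most 3 counts in a library.

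Of the H/ACA members, 3 stood far above the others. Snora73b had 1026 and 1086 expected counts, or 298.5 and 316 TPM (307 ± 12.1). Snora73a had 865 and 967 counts, or 252 and 281 TPM (266 ± 20.8). The values of the U17 pair did not overlap between the genes, and Snora73b was the higher in both libraries. They lie side by side on chromosome 4, at the positions given with their sequences, in the span of Rcc1 and Snhg3. A gene on the opposite strand there, Gm17300, was at 0 in both libraries.

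Snora74a (U19) was the third of them, with 756 and 843 counts, or 240 and 268 TPM (254 ± 19.3). Its range overlapped that of Snora73a. The next was Snora23, from an intron of the import receptor gene Ipo7, with 97 and 83 counts, or 35.2 and 30.1 TPM. Snora44, from Snhg12, had 23.9 and 22.9 TPM, and Snora68 had 21.8 and 20.8 TPM. The next by mean count were Snora21, with 6 and 23 counts or 4.87 and 18.6 TPM, and Snora81, with 13 and 11.9 counts or 5.07 and 4.63 TPM. By mean TPM, Snora61 (8.13), Snora57 (7.23), Snora7a (6.66) and Snora78 (6.38) stood above Snora81 (4.85).

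The C/D class had 5 members with any count, and all 5 had more than 120 bases. Snord22 had 99.4 and 106 TPM, from 87.0 and 93.4 counts. Snord15b had 104 and 94.7 TPM, from 155 and 141 counts. Their ranges overlapped, so that their order by TPM was not fixed by these libraries. Snord17, from an intron of the sorting nexin gene Snx5, had the most counts of the class, 344 and 324, but less TPM, 76.3 and 71.8, because its effective length of 139 bases is larger. Snord15a had 52.9 and 52.8 TPM and Snord118 12.8 TPM in each library, from 15 counts each.

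**Figure D2:**
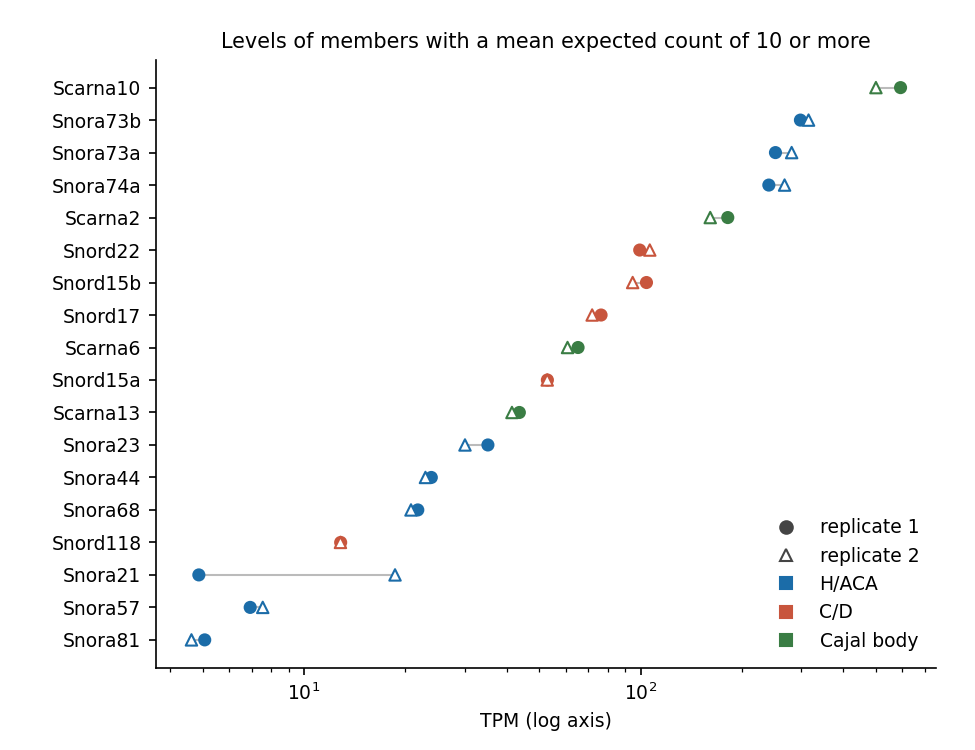
TPM on a log axis of the 18 members whose mean expected count was at least 10, with replicate 1 as filled circles and replicate 2 as open triangles, coloured by class. Scarna10 is highest, and only Snora21 has values of the libraries far apart, at 4.87 and 18.6 TPM.

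Grouped by role, the RNAs of ribosomal RNA cleavage with more than 120 bases were detected, as were 46.3% of all members of that length. Snord13, put on the same role list, has 104 bases and was at 0. The U17 pair held 1891 and 2053 counts together, U22 (Snord22) 87.0 and 93.4, and U8 (Snord118) 15 and 15. The 4 genes of U14 (Snord14a, Snord14c, Snord14d and Snord14e) have fewer than 100 bases and were at 0. No gene named for U3 was among the 150. Of the 4 Gas5 guests present (Snord47, Snord78 and the Snord80 pair), the 4 Rpl13a guests and the 19 members of the imprinted region on chromosome 7 (Snord64, Snord107 and 17 of the Snord116 family), all are shorter than 100 bases and were at 0. No Snord113 or Snord114 gene was among the 150.

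Most members lay in another gene on the same strand. A host was annotated for 141 of the 150, 90 hosts in all, and 33 members lay in 24 ribosomal protein genes. Where more than 1 gene held a member, the one with the highest mean expected count was taken as its host. For the U17 pair this was Rcc1 (5.72 and 5.80 TPM), although the non-coding Snhg3 (7.08 and 7.58 TPM) also lies around it. The comparison of guests and hosts below rests on this choice, and no other was tried. By position, 76 members lay in a gene of the same strand and overlapped none of its annotated exons. A further 56 lay within an exon of at least 1 transcript, 9 partly in an exon and 9 in no gene of the same strand. Snhg14 had the most guests, 17, followed by Snhg12 with 5.

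Levels of guests and hosts did not run together. Over 21 detected members whose host was compared, the Spearman rho between mean TPM of guest and host was -0.378, a description over points that share both libraries and in part a host. The 5 of these in ribosomal protein genes were all below their host, at 0.011 to 0.619 times its mean TPM, and those hosts had 161 to 479 TPM. The 6 in non-coding genes were all above theirs, at 1.55 to 95.4 times its mean TPM, and those hosts had 0.55 to 10.4 TPM. This grouping was made after the values had been seen. Of the 6, Snord22, Snora44, Snora61 and Snora74a lie whole in a transcript of their host. Of the 5, Snord15b, Snora64 and Snora7a do so. Their ratios depend on how reads were divided between guest and host. In the second deposited quantification, described below, none of these members had a count. Only detected members entered, which limits how low a guest can stand beside a host of low TPM. For Snora78, 3 counts would be worth 3.19 TPM, so it could only lie above Snhg9 at 0.55. Examples left out by the filter are Snora9 and Snora16a, at 0.445 and 0.021 times their non-coding hosts, and Snora26, at 5.85 times Dancr. In a bulk tissue, fewer cells with an RNA and less RNA per cell cannot be told apart.

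Single cases show the spread. Snora31, in an intron of Tpt1 (1415 and 1335 TPM), had 5.97 and 3.97 TPM, on 6 and 4 counts. Scarna13, in Snhg10 (0.89 and 0.70 TPM), had 53.5 times the mean TPM of its host. Snord15a and Snord15b share the host Rps3, a protein of the small ribosomal subunit with 163 and 158 TPM, yet Snord15b had 99.4 TPM on average and Snord15a 52.8. Snora78 had 5.32 and 7.43 TPM against 1.10 and 0 for Snhg9, but Rps2 lies on the opposite strand there with 313 and 333 TPM, and the sources used here do not say whether reads were counted by strand.

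**Figure D3:**
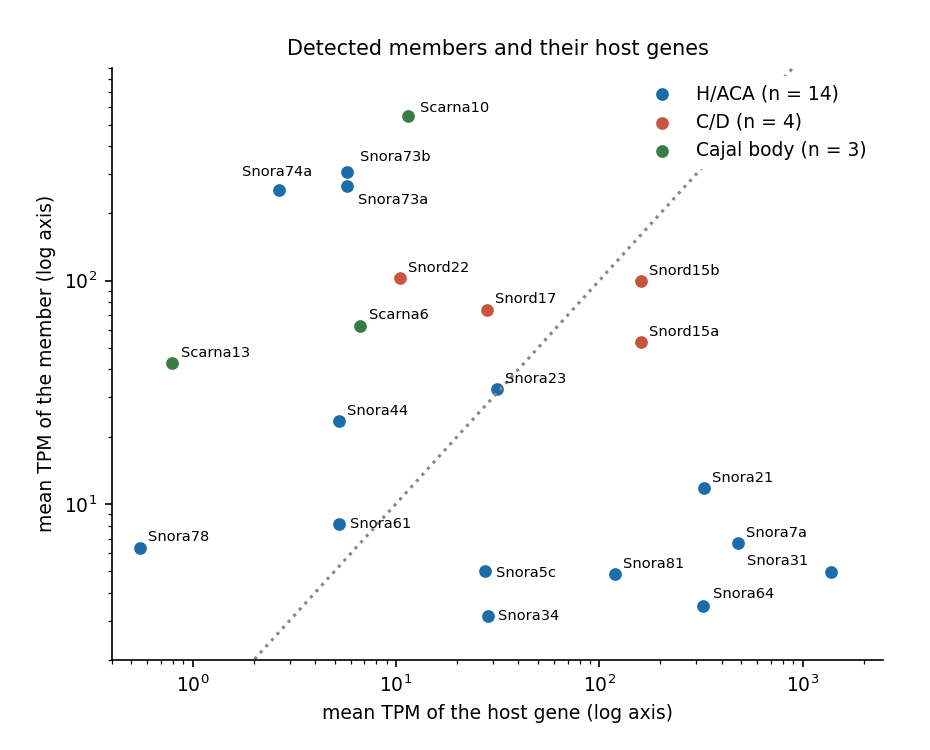
Mean TPM of the 21 detected members whose host was compared (y) against mean TPM of that host (x), both on log axes, with the dotted line at equal values. The 12 members above the line include all 6 in non-coding hosts, and the 9 below it include all 5 in ribosomal protein genes. Members that lie whole in a host transcript, Snora74a among them, share reads with it.

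How reads were shared with longer transcripts differed between members. A stretch of 100 bases was called shared where it occurs exactly in a transcript of another gene. No stretch was shared for 13 of the 25 detected members, and 12 of these 13 had whole-number counts in both libraries, the exception being Snora73b. Snora73b is 96.6% identical to Snora73a, and a search for exact stretches does not count such a near copy. Whether reads were shared within the pair was not tested. All stretches were shared for 9 detected members, and none of these 9 had whole-number counts in both libraries. Whole here means exactly so at the decimals deposited. For Scarna10, 184 of 226 stretches were shared with Ncapd2 or Gm28967, the latter at 0 in both libraries. For Snora73a, 60 of 106 were shared with Snhg3, which had 7.08 and 7.58 TPM. The deposited posterior standard deviation of the count was 12.4 and 8.71 for Scarna10, 8.01 and 8.34 for Snora73a and 7.86 and 8.18 for Snora73b, which is small beside their counts.

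The second deposited quantification, a transcript table derived from a FASTQ file, gave another picture of the same libraries. It had counts for 1 member, Scarna2, with 561 and 486 estimated counts against 1855 and 1647 in the gene tables. The other 149 members were at 0 there, Scarna10, Snora73b and Snora73a included. The shortest transcript with a count in it had 288 bases in replicate 1 and 289 in replicate 2. Of its 12091 transcripts under 325 bases, 55 had a count in replicate 1 and 27 in replicate 2. All members but Scarna2 and Scarna10 are shorter than 288 bases, so detection of the whole class turns on which table is read. Scarna10, with 325 bases, was at 0 although its length is above that limit.

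Many of these RNAs also occur whole inside longer annotated transcripts, mostly of the retained intron kind. That held for 70 of the 150 members, 51 C/D and 19 H/ACA, and for 49 of the 89 members under 100 bases. The search was by sequence, so Snord116 members that overlap no exon by position count here through a transcript of Snhg14. For several of the 70 members the longer transcript had more counts in the second table. Snora74a lies whole in AC121821.1-204, a retained intron transcript of 708 bases. That transcript had 13.1 and 5.21 counts in the transcript table of the first quantification but 839 and 930 in the second table, where Snora74a itself was at 0. Rps3-204, which holds Snord15b, had 58.4 and 45.9 counts in the first and 296 and 252 in the second.

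The longer transcripts of all 9 members compared whose mean count was 3 or more were higher in the second table in both libraries. These 9 sets are not separate, since Snora44 and Snora61 lie whole in the same Snhg12 transcript. Of the 7 sets for members with some count but a mean under 3, 6 were also higher in both libraries, 0 lower and 1 mixed. Whether longer transcripts that hold no member run the same way was not tested. Members at 0 did not share a direction: among the 36 sets of longer transcripts that hold 53 such members, 16 were higher in the second table in both libraries, 15 lower and 5 mixed. The 3 transcripts of Snhg1 that hold Snord22 had 125 and 86.3 counts in the first quantification and 250.2 and 207 in the second. The Eif4a2 transcript that holds Snora81 had 121 and 100.2 counts in the first and 188 and 142 in the second. Rpl32-202, which holds Snora7a, had 14.7 and 10.4 counts in the first and 3875 and 3418 in the second, far more than the 10.3 and 7.44 counts of Snora7a. Of members at 0, the transcript that holds Snord95 had 72.1 and 69.5 counts in the first and 450 and 396 in the second. Rplp2-205, which holds Snora52, also at 0, had 305 and 222 counts in the first and 24 and 23 in the second. No longer transcript holds Scarna10 or the U17 pair whole. Snhg3-202, which shares 60 stretches with Snora73a, had 12.2 and 23.4 counts in the first and 70 and 75 in the second, against 865 and 967 for Snora73a. Ncapd2-203, which shares 138 stretches with Scarna10, had 13.5 and 6.69 counts in the first and 0 and 12.8 in the second.

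**Figure D4:**
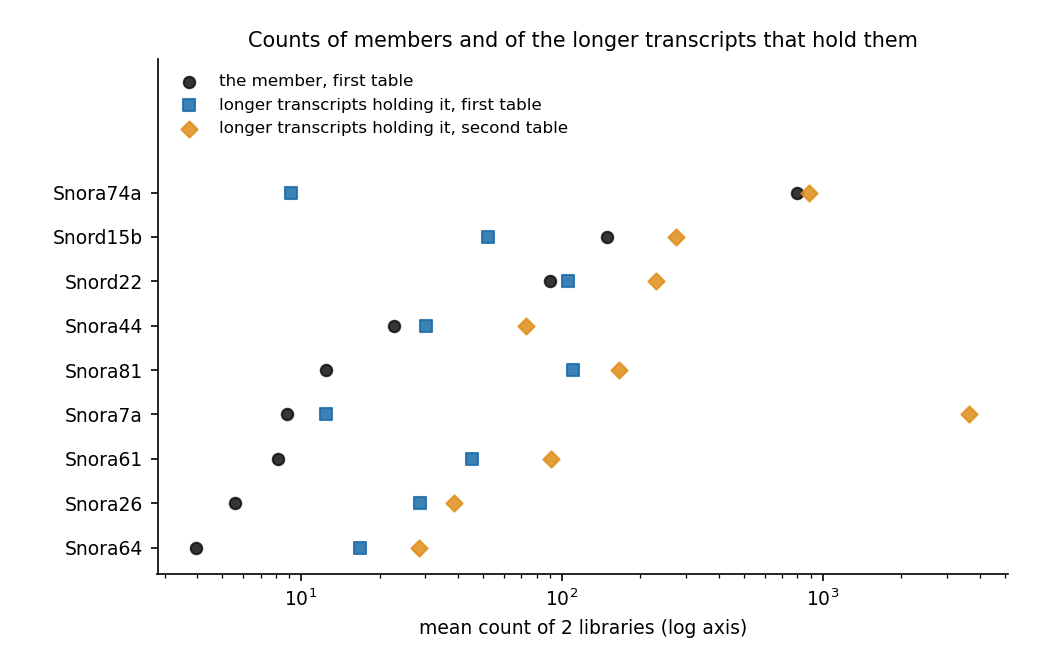
Mean counts over the 2 libraries on a log axis for 9 members with a mean of 3 or more that lie whole in a longer transcript: the member in the gene tables (circles), the longer transcripts in the same quantification (squares) and in the second table (diamonds), where the members are at 0. For each member the diamond lies to the right of the square, and for Snora74a the diamond lies close to the circle.

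The libraries were compared by the log2 ratio of replicate 2 over replicate 1, for the 14 members whose mean expected count was at least 20. Of these 14, none differed by more than 2-fold, against 1.76% of all genes and 4.5% of the other genes of up to 300 bases at the same minimum count. Their median log2 ratio was 0.0015, with 7 higher and 7 lower in replicate 2 (5 and 9 with library totals or spike-in totals), and their median absolute log2 ratio was 0.0856, against 0.132 over all 14667 genes.

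The largest differences were small, and those of the leading H/ACA and Cajal body members had opposite signs. Snora73a had a log2 ratio of 0.23 (95% counting interval 0.10 to 0.36), Snora74a 0.23 (0.08 to 0.37), Snord22 0.17 (-0.27 to 0.60) and Snora73b 0.15 (0.03 to 0.28). At the other end, Scarna10 had -0.17 (-0.24 to -0.11), Snora23 -0.15 (-0.60 to 0.28), Scarna2 -0.10 (-0.20 to -0.005) and Snord15b -0.065 (-0.41 to 0.27). The interval left out 0 for 5 of the 14: the 3 leading H/ACA members, higher in replicate 2, and the 2 leading Cajal body members, lower in it. It did so for 32% of all genes and 33.3% of the other genes of up to 300 bases at the same minimum count, so the share among members was near the background. For Snora73b the interval held 0 with library totals (-0.02 to 0.23) and with spike-in totals (-0.004 to 0.24), which left 4 of the 14. Summed over the class, the log2 ratio was 0.19 for H/ACA (0.12 to 0.26), 0.01 for C/D (-0.14 to 0.17) and -0.14 for Cajal body members (-0.19 to -0.09). With library totals in place of TMM these became 0.15, -0.03 and -0.18, and with spike-in totals 0.16, -0.02 and -0.17, so that the signs of the H/ACA and Cajal body sums stayed and that of the C/D sum turned. The H/ACA and Cajal body sums rest mostly on the leading members named above. Of the 6 H/ACA members compared, 5 were higher and 1 lower in replicate 2 with TMM, but 3 and 3 with library totals or spike-in totals. All 4 Cajal body members compared were lower with each scaling.

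These intervals are exact binomial ones of the rounded counts. Without molecular identifiers reads cannot be taken for separate molecules, so the intervals stand for counting error alone, and 2 libraries give no test of a difference between the mice. The erythroid genes Hba-a1 and Hbb-bs were both higher in replicate 2, at 412 and 719 TPM and at 394 and 708 TPM, and their part in these ratios was not tested. Snora21, under the minimum with 6 and 23 counts, was 3.79-fold higher in replicate 2, with an interval of 0.67 to 3.60 on the log2 scale.

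**Figure D5:**
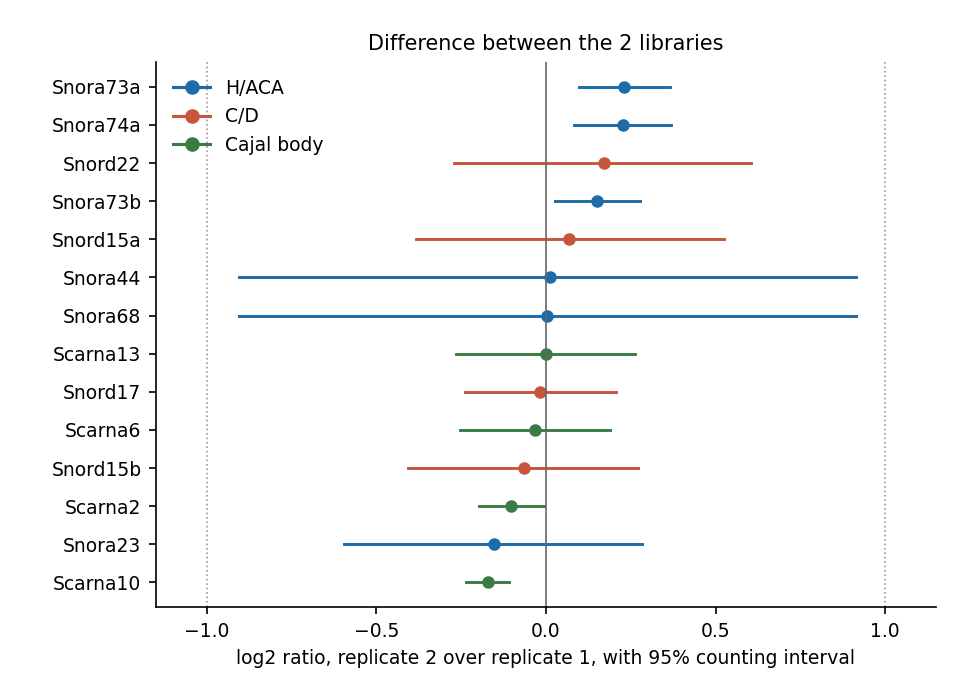
Log2 ratio of replicate 2 over replicate 1 of the 14 members whose mean expected count was at least 20, coloured by class, with 95% binomial intervals that cover counting error only. All 14 points lie between -0.17 and 0.23, inside the dotted lines at 2-fold.

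Genes for the proteins that bind these RNAs were present at moderate levels. The 4 core proteins of the H/ACA particle had mean TPM of 10.99 to 24.5. Dkc1, the pseudouridine synthase dyskerin, had 12.8 and 11.7 TPM, and Nop10 had 23.8 and 25.2. The 4 core proteins of the C/D particle had 17.8 to 24.3, with the methyltransferase gene Fbl at 18.7 and 16.9 TPM. Mean TPM of the 2 sets overlapped.

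Of the 10 assembly factors listed, 9 were found under their symbol and all 9 had 1 TPM or more in both libraries, with a median of 5.34. Pih1d1 was the highest at 19.9 and 19.0 TPM, and Shq1, a chaperone of dyskerin, the lowest at 1.23 and 1.00. The Cajal body proteins were lower, at 1.80 to 8.35 mean TPM. Coil, the scaffold of the Cajal body, had 1.64 and 1.95 TPM, and Wrap53, which binds Cajal body RNAs, 2.35 and 2.2. Among host genes, Gas5 had 40.5 and 37.3 TPM, Rpl13a 517 and 479, and Snhg14 1.23 and 0.76, while their short guests in the tables were at 0 by length. Rian (1119 and 995.5 TPM) and Snrpn (8.70 and 9.68 TPM), on the same list, were assigned as host to none of the 150.

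Expected counts summed to 38874862 (replicate 1) and 38160786 (replicate 2) over all features, of which 38586603 and 37880094 fell on M21 genes. At this depth 3 counts are 0.0777 and 0.0792 CPM. The labelled tissue was checked on its markers: Acta1, Ckm, Mylpf and Myh4, genes of muscle fibres, had mean TPM of 8348 to 23397. Markers of fibroblasts (18.7 to 2060), endothelium (44.8 and 63.8), macrophages (2.10 and 13.1) and Schwann cells (290.0) were also present.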

How the data were processed

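The data were 2 libraries of total RNA from mouse gastrocnemius, 1 per animal number in the labels. The deposited tables of genes and transcripts have the columns of RSEM and give expected counts and TPM. Per the file headers and notes they were computed from alignments to the transcriptome (mm10, GENCODE M21). A further deposited table of transcripts has the columns of kallisto and gives estimated counts computed from a FASTQ file. The sources used here name no program or version and do not say whether strand was used.

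Members were taken by symbol from the transcript names and joined by gene ID. Positions, hosts and sequences come from the GENCODE M21 annotation and transcripts. Expected counts were rounded for TMM scaling (edgeR 4.0.16 in R 4.3.3) over M21 genes of mean count 10 and above, with a prior count of 0.5. DESeq2 1.42.0 gave alternative size factors. Features without an M21 gene ID and spike-ins were left out of library sizes. Other steps used Python 3.11.15, pandas 2.3.3 and scipy 1.17.1. The ratio and its interval were tested on simulated counts with counting error alone and known library totals. That simulation had no TMM scaling, no added spread between libraries and no shared reads, so it cannot show how the interval performs here.

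Named are the leading members by mean expected count (8 per class, 5 for Cajal body RNAs), the 4 largest and 4 smallest ratios, the members of the role and host lists with those hosts and protein partners, and the 4 members on which the tables differ most. Further members were picked as examples with their values in view. The host of 1 detected member is not reported here and was left out of the comparison of guests and hosts and of the plot of longer transcripts. The members and lists were chosen with earlier results of these data known. Levels are mean ± SD over 2 libraries. Alternatives covered the table, the count unit, the detection minimum, scaling, filters, the prior count and leaving out each replicate.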

Additional observations from a re-analysis of the deposited data

How the results depend on the processing

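The second transcript table changed the results most. With it, 1 member was detected in all, 0 H/ACA, 0 C/D and 1 Cajal body member, the Cajal body share of the members' counts was 100% and that of the H/ACA and C/D classes 0%, the members held 0.00143% of the counts on M21 genes, and the only ratio left was -0.105 on the log2 scale. Of the 18 leading members it kept 1, whereas TPM and counts per kilobase each kept 16. A minimum of 10 counts left 8 H/ACA members, and a minimum of 1, posterior mean counts and single replicates kept all detection counts within 1.5 times.

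Summed TPM gave class shares of 45.9% (H/ACA), 15.8% (C/D) and 38.3% (Cajal body) and a total of 0.216%. Counts per kilobase gave 40.4%, 10.1% and 49.5%. Without the highest member of each class they were 42.2%, 7.29% and 50.5%. Leaving out a replicate gave 27.8% to 32.4%, 6.61% to 6.8% and 60.8% to 65.6%.

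The median log2 ratio was -0.041 with library totals and 0.047 over the 37 members with a mean of 1 or more, against 0.0015. The count past 2-fold rose from 0 to 1 at a mean of 10 (Snora21) and to 7 at a mean of 1. No paired analysis was possible because there is 1 group. Length limits most members, since 89 of 150 have an effective length of 0, and only 14 of the other 61 had a mean count of 20 or more.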
